A study of Anopheles gambiae with 9 samples.

Results

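The comparison of male and control female pedicels rested on 6 of the 9 libraries of the study: 3 from dsxF+/+ XY males and 3 from dsxF+/+ XX females of the malaria mosquito Anopheles gambiae, taken by the group given in the sample labels, with every transcript in the table described. The pedicel is the second antennal segment and houses the Johnston's organ, the auditory organ of the mosquito. Mosquitoes of 2 to 3 days of age were entrained to a light/dark cycle over 3 days and frozen as the light began to dim, and each library, called a biological repeat in the study's methods, pooled 63 to 76 dissected pedicels, so that p-values measure the spread between such pools. Both groups were controls of the G3 strain with an intact doublesex female isoform. The other 3 libraries came from dsxF-/- XX intersex females, in which that isoform is disrupted; they entered the filter, the scaling and the estimate of spread, but not the contrast.

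In the Johnston's organ, mechanosensory neurons end in cilia that are stretched when sound moves the antennal flagellum, and axonemal dyneins, microtubule proteins and channels such as nanchung belong to this apparatus. Males find females by the tone of their wingbeat, and their Johnston's organ is the larger and more elaborate of the sexes. In RNA from a whole pedicel, a difference in the number of cells of a type and a difference in RNA per cell cannot be told apart. The deposited table holds, for each transcript, a count estimated by kallisto, and identifiers without names. Names were taken from the study's list of 82 transcripts of 78 genes. The paper describes the list as upregulated in dsxF+/+ XY over dsxF+/+ XX pedicels, that is, in these same samples. It was thus chosen for the male-higher direction, and its genes are not independent evidence of a direction. The reference gene table matched 0 identifiers, and no sequence could be tied to any of them.

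The 3 dsxF+/+ XY libraries held 14708863 to 18379886 counts and the 3 dsxF+/+ XX libraries 15912671 to 17188581. Levels are given as CPM, the count of a feature per megacount of its library after TMM normalization, and carry no correction for transcript length, so that a high level of one gene over another is a larger share of counts and not necessarily more molecules. Libraries stood apart within both sexes. The second library of each sex was over 2-fold above both others of its sex in 259 genes (dsxF+/+ XY) and 381 genes (dsxF+/+ XX) of at least 5 CPM, and these 2 libraries have neighbouring sample-sheet numbers. These numbers, the S suffix of each column name, form 3 runs with 1 library of each group, and the labels do not say that they mark a batch. The third dsxF+/+ XX library was that far above the others in 109 genes. Among genes of at least 5 CPM, the SD of log2 levels had a median of 0.275 over the dsxF+/+ XY libraries and 0.329 over the dsxF+/+ XX libraries. Of the marker lists for other tissues that could be carried over (muscle, eye, fat body, hemocytes, salivary gland), none had a named member, so their part in any result was not tested.

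More genes were lower than higher in male pedicels, and those lower differed by more. When counts were summed over the transcripts of a gene, 2067 of 10479 genes tested had less in dsxF+/+ XY than in dsxF+/+ XX libraries (19.7%) and 1336 had more (12.7%, or 32.5% in either direction), at an adjusted p under 0.05 in edgeR's quasi-likelihood test. The median gene called lower differed 3.81-fold (log2 fold change -1.93) and the median gene called higher 2.14-fold (1.10). Genes at 0 in one sex stayed beyond these medians even at their lower bound. Setting them there therefore left both medians as they were, which is no check on them. A difference over 4-fold was found in 987 of the genes called lower (47.8%) and in 186 of those called higher (13.9%), and one over 16-fold in 277 and 28. Over all genes tested the median log2 fold change was 0.01, a value that TMM normalization itself brings close to 0. By transcript, 2237 of 12379 were lower (18.1%) and 1453 higher (11.7%), 29.8% together, and the libraries of the sexes did not overlap in 23.4% (dsxF+/+ XY below) and 20.1% (dsxF+/+ XY above). The 3 libraries of the sexes did not overlap in 2012 of the genes called lower and 1298 of those called higher, against 44.0% of all genes tested whose libraries did not overlap in one direction or the other. Without the third dsxF+/+ XX library 1666 genes were called lower and 786 higher, and without the second dsxF+/+ XX library 2362 and 2032, so the count of higher genes was the less steady of the 2.

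**Figure D1:**
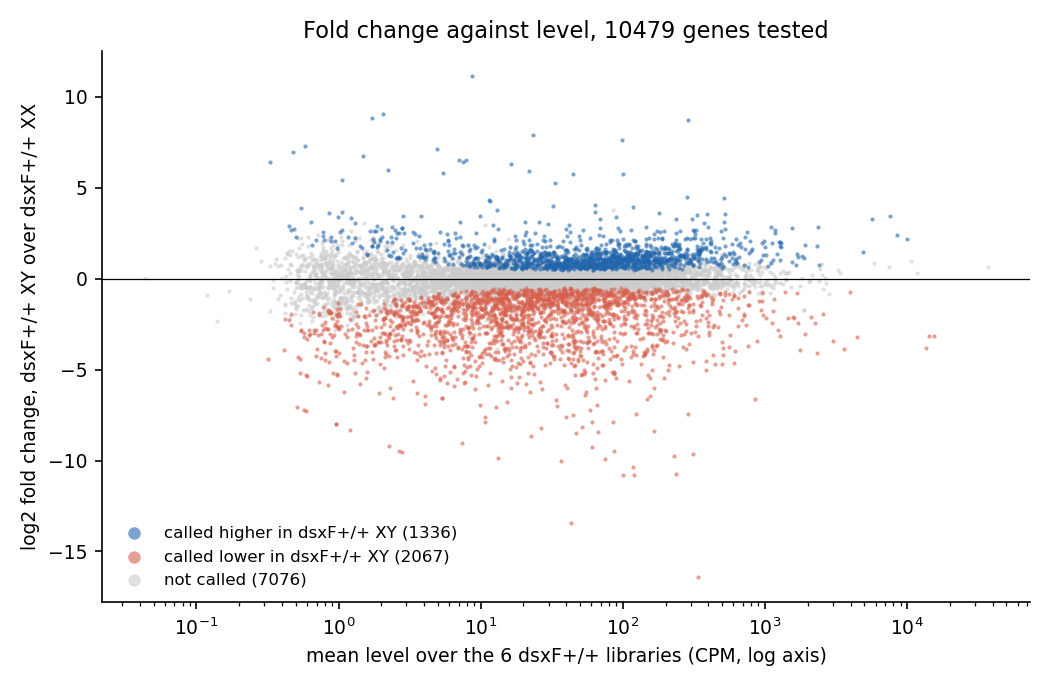
Each point is a gene, with the mean level over the 6 dsxF+/+ libraries (CPM, log axis) across and the log2 fold change of dsxF+/+ XY over dsxF+/+ XX upward. Genes called lower (2067) spread far below 0 at every level, with a median log2 fold change of -1.93. Those called higher (1336) lie less far from 0, with a median of 1.10, and mostly at levels over about 5 CPM.

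The 2 sets of genes differed in abundance. Among the 2447 genes of 5 to 20 CPM, 590 were lower (24.1%) and 184 higher (7.52%) in dsxF+/+ XY. Among the 278 genes over 500 CPM the order was turned round, with 58 lower (20.9%) and 73 higher (26.3%). The median level in the sex with more was 34.8 CPM for genes called lower (in dsxF+/+ XX) and 85.5 CPM for genes called higher (in dsxF+/+ XY). The test has more counts to draw on in the higher bins, and the part of depth in this climb was not tested.

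**Figure D2:**
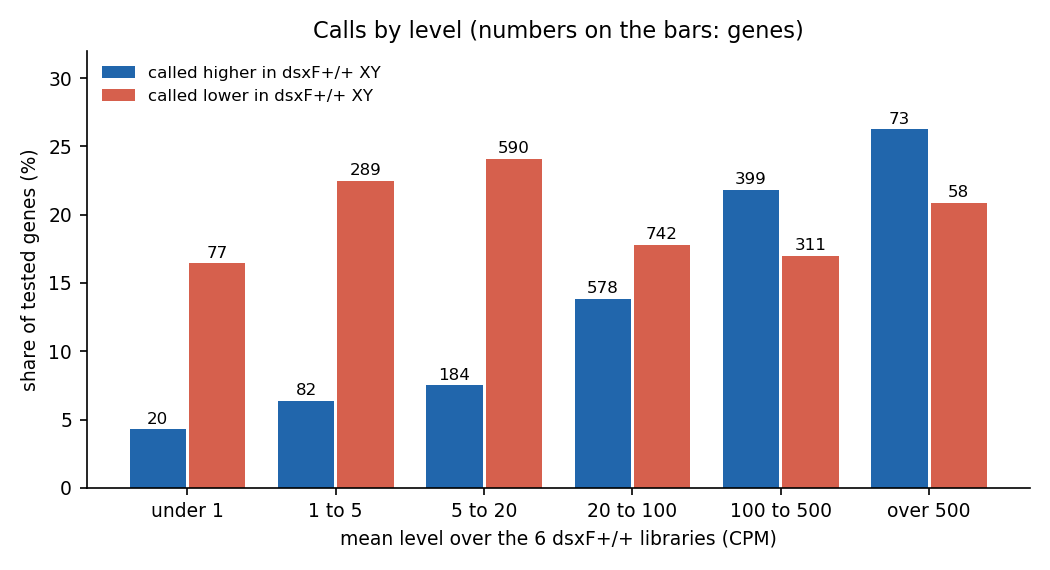
Bars give the share of tested genes (%) called higher (blue) or lower (red) in dsxF+/+ XY, in 6 bins of the mean level over the 6 dsxF+/+ libraries (CPM), with the number of genes on each bar. Lower calls stay between 16.5% and 24.1% in every bin, while higher calls climb from 4.27% under 1 CPM to 26.3% over 500 CPM.

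Between the dsxF+/+ groups, many genes were close to silent in males only, and few in females only. A mean of less than 1 CPM in dsxF+/+ XY with at least 5 CPM in dsxF+/+ XX was seen in 143 genes called lower, and the mirror image in 13 genes called higher. A mean under 20 CPM in dsxF+/+ XY with at least 100 CPM in dsxF+/+ XX was seen in 111 genes, and the mirror image in 9. The rank lists were closer to even, and ranking by the level of one sex itself favours genes higher in that sex. Of the 100 genes of the highest mean level in dsxF+/+ XY, 47 were called higher and 7 lower, and of the 100 highest in dsxF+/+ XX, 9 were called higher and 42 lower, with 51 genes in both lists.

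Measured as a share of the library, genes called lower held 8.69%, 5.59% and 9.37% of the counts of the 3 dsxF+/+ XY libraries, against 33.4%, 26.1% and 42.1% in dsxF+/+ XX. Genes called higher held 29.1%, 33.4% and 31.1% in dsxF+/+ XY, against 10.5%, 13.6% and 9.19% in dsxF+/+ XX. The calls chose the genes, so these shares are a description with no test. The third dsxF+/+ XX library was the highest in the shares of lower genes and the lowest in those of higher genes. Every dsxF+/+ XY share of lower genes lay below every dsxF+/+ XX share. The same order within each run of sample-sheet numbers, which holds 1 library of each sex, follows from this and adds nothing to it.

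A few genes carried a large part of the female excess, and the third dsxF+/+ XX library set how large. It took 31 of the 2067 genes called lower to reach 50% of their summed CPM difference, and 49 of the 1336 called higher. The 6 lower genes with the largest CPM difference held 0.828%, 0.352% and 1.67% of the counts in dsxF+/+ XY, against 4.11%, 4.33% and 18.8% in dsxF+/+ XX. They made up 32.7% of the summed difference, or 15.1% with the third dsxF+/+ XX library left out of the mean, when 70 genes in place of 31 were needed for 50%. The third dsxF+/+ XX library stood over 2-fold above both other females in 6 of the 10 lower genes with the largest CPM difference. The remaining lower genes were more even, with 7.87%, 5.23% and 7.69% in dsxF+/+ XY, against 29.3%, 21.8% and 23.3% in dsxF+/+ XX.

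**Figure D3:**
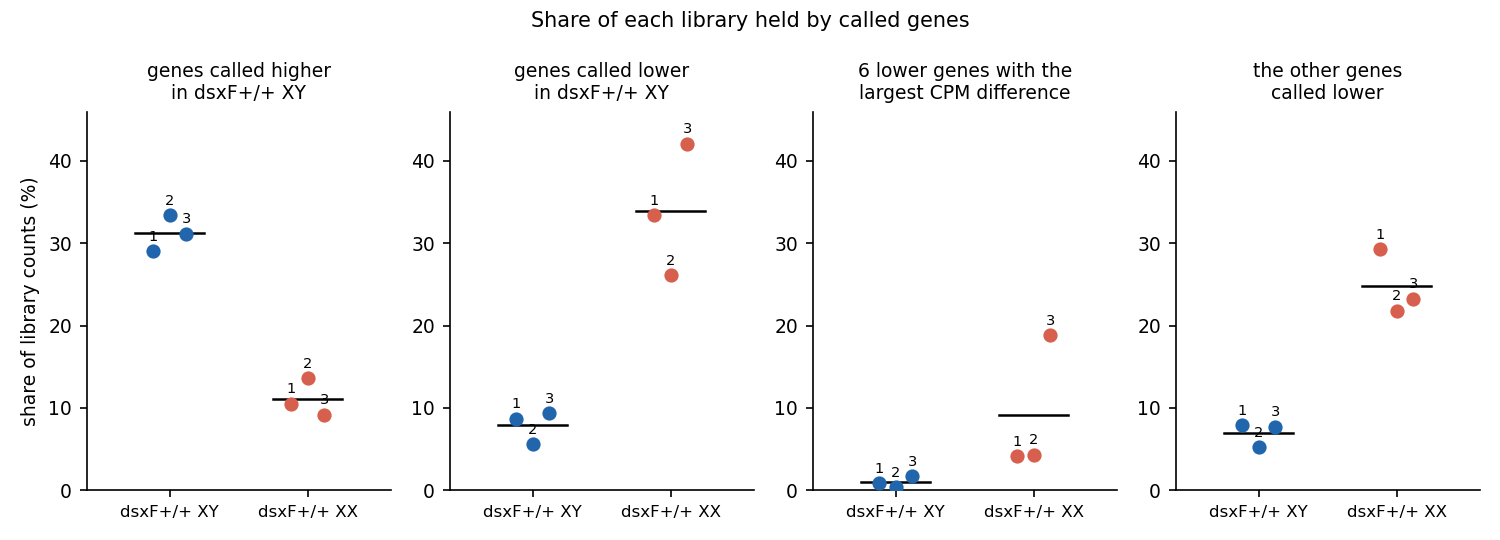
Points give the share (%) of the counts of each library held by genes called higher, genes called lower, the 6 lower genes with the largest CPM difference, and the other lower genes; replicate numbers stand above the points, and bars are means of 3 libraries, with dsxF+/+ XY left of dsxF+/+ XX. In the third panel the third dsxF+/+ XX library is at 18.8% and the other females at 4.11% and 4.33%; in the fourth the dsxF+/+ XX libraries lie between 21.8% and 29.3%.

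The 10 most abundant transcripts of each library held 14.2%, 13.7% and 13.1% of the counts in dsxF+/+ XY, against 9.24%, 11.1% and 23.6% in dsxF+/+ XX, a difference of -0.963 percentage points (exact two-sided permutation test, p = 1, smallest p possible 0.1 with 3 libraries against 3). This difference turned to 3.54 points without the third dsxF+/+ XX library, which alone decided its sign: every dsxF+/+ XY library then lay above both remaining dsxF+/+ XX libraries. With 3 libraries a side this test cannot pass 0.05, so it does not show that the sexes were alike. In each library 50% of the counts were held by 490, 524 and 536 transcripts in dsxF+/+ XY and by 547, 652 and 338 in dsxF+/+ XX.

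AGAP013149 had the largest drop in CPM of all genes called lower and carries no name here. Its level was 2328, 1172 and 5677 CPM in dsxF+/+ XY, against 9469, 10378 and 63273 CPM in dsxF+/+ XX. The sexes did not overlap, but the third dsxF+/+ XX library stood far above the other females. Its log2 fold change was -3.18 (standard error 0.84, edgeR adjusted p = 0.0151), and it fell short of the threshold without that library (-1.69, edgeR adjusted p = 0.0762) and without the first dsxF+/+ XY library (-2.98, edgeR adjusted p = 0.0538). AGAP009877, also unnamed, had the largest fold. It held 0 counts in each dsxF+/+ XY library, against 14561, 10801 and 7914 counts in dsxF+/+ XX, a mean of 676 CPM. Set against a floor of 3 counts over the 3 male libraries, it was at least 10694-fold lower in dsxF+/+ XY (edgeR adjusted p = 3.06e-05). Its levels in the 3 dsxF+/+ XX libraries were within 2-fold of each other, so this difference did not lean on 1 library. The gene was also low in the dsxF-/- XX libraries, with 32, 11 and 84 counts, so its low level was not limited to males. In all, 11 genes held at least 10 counts in every dsxF+/+ XX library and 0 in all dsxF+/+ XY libraries, 4 of them at 5 CPM or more, and 5 genes showed the reverse, 1 of them at 5 CPM or more. The counts carry no molecular identifiers, so such a floor covers counting error only.

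In the other direction, AGAP007160, also without a name here, had the largest rise in CPM. Its level was 16504, 15402 and 17471 CPM in dsxF+/+ XY, against 3925, 3739 and 3063 CPM in dsxF+/+ XX (log2 fold change 2.20, standard error 0.23, edgeR adjusted p = 5.43e-05). Unlike AGAP013149, it varied little within either sex. AGAP029221, unnamed too, had 272, 243 and 309 counts in dsxF+/+ XY and 0 in dsxF+/+ XX, at least 283-fold higher (edgeR adjusted p = 3.31e-05). The only named gene at 0 in all dsxF+/+ libraries of one sex was AGAP012487, a cuticular protein of the RR-2 family. It had 12, 15 and 30 counts in dsxF+/+ XY and 0 in dsxF+/+ XX, at least 18.98-fold higher against the same floor (edgeR adjusted p = 4.98e-04). It was not limited to males, since the dsxF-/- XX libraries held 22, 36 and 28 counts.

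Summing to genes changed which features were called. Of 1478 genes with more than 1 transcript (3699 transcripts), 1411 had a test and 689 a called transcript. In 281 of these every called transcript was higher in dsxF+/+ XY, and the gene sum was also higher in 194 and not called in 87. In 371 every called transcript was lower, and the gene sum was also lower in 282, not called in 88 and higher in 1. A further 37 genes had transcripts called in both directions, and their sums were higher in 9, lower in 4 and not called in 24. Conversely, 44 of the genes with several transcripts had a called sum (20 higher, 24 lower) and no called transcript. A further set of single-transcript genes passed in the gene table only, where the same counts were filtered, fitted and adjusted among other features, for a total of 246 genes called by sum alone. Kallisto divides reads that fit several transcripts by estimation, so a split within a gene is less certain than its sum.

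The named genes come from a list chosen as higher in males, and the splits included the only one whose sum was lower in males. AGAP001281 encodes a potassium inwardly-rectifying channel of subfamily J, a family that helps to set the resting potential. Its gene sum was 150, 135 and 155 CPM in dsxF+/+ XY, against 341, 293 and 335 CPM in dsxF+/+ XX (log2 fold change -1.14, standard error 0.18, edgeR adjusted p = 6.66e-04). Its transcripts moved apart.

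Transcript AGAP001281-RA was at 41.8, 23.98 and 50.9 CPM in dsxF+/+ XY, against 279, 222 and 272 CPM in dsxF+/+ XX (log2 fold change -2.73, edgeR adjusted p = 2.64e-04), while AGAP001281-RB was at 110, 110 and 105 CPM against 58.7, 71.6 and 57.5 CPM (0.79, edgeR adjusted p = 0.0108; 0.0508 without the third dsxF+/+ XX library). The -RA form made up on average 26.0% of the gene's counts in dsxF+/+ XY and 80.3% in dsxF+/+ XX, so the leading transcript differed between the sexes in every library. The gene sum and -RA passed the threshold with each library left out in turn.

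AGAP008028, the beta subunit of voltage-dependent calcium channels, an auxiliary subunit that regulates the pore, showed a split of another kind. Its gene sum was higher, at 130, 285 and 165 CPM in dsxF+/+ XY, against 45.4, 95.5 and 45.7 CPM in dsxF+/+ XX (log2 fold change 1.63, standard error 0.36, edgeR adjusted p = 0.00546). AGAP008028-RA rose with it (2.55, edgeR adjusted p = 0.0022). AGAP008028-RC was almost confined to females, with 0, 0.0749 and 0 CPM in dsxF+/+ XY, against 13.01, 29.5 and 22.8 CPM in dsxF+/+ XX (edgeR adjusted p = 0.00897), or 1 count in all males against 1059 in all females, a pooled ratio of 1021 in favour of dsxF+/+ XX (exact 95% counting interval 183 to 40367). This form held 36.8% of the gene's counts in dsxF+/+ XX. Both second libraries, dsxF+/+ XY and dsxF+/+ XX, were the highest of their sex for the gene sum.

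In 2 unconventional myosins a minor or co-leading transcript was lower in males while the sum was not. For AGAP011138, Myosin XVIII, the gene sum was 119, 151 and 122 CPM in dsxF+/+ XY, against 87.1, 137 and 87.0 CPM in dsxF+/+ XX, with overlapping sexes (log2 fold change 0.34, edgeR adjusted p = 0.279). AGAP011138-RA was lower, with 18.1, 17.8 and 19.6 CPM in dsxF+/+ XY, against 69.4, 55.9 and 45.3 CPM in dsxF+/+ XX (-1.62, edgeR adjusted p = 6.36e-04). AGAP011138-RB missed the threshold (1.29, edgeR adjusted p = 0.0605) and passed it with the sample-sheet runs as a block (1.42, edgeR adjusted p = 0.0472). AGAP029989, Myosin XV, related to the myosin that elongates stereocilia in mammals, had a gene sum of 34.2, 44.1 and 38.1 CPM in dsxF+/+ XY, against 17.3, 31.7 and 19.8 CPM in dsxF+/+ XX (0.76, edgeR adjusted p = 0.0434). Its transcript AGAP029989.R838 was lower (-2.38, edgeR adjusted p = 0.0256), and both calls were lost with any of 5 single libraries left out, the exception being the second dsxF+/+ XX library.

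Where several transcripts rose, the sum did not always follow. AGAP003709, the calcium-activated potassium channel of large conductance, is opened by calcium and voltage together. Its transcript AGAP003709-RD was at 75.2, 214 and 76.8 CPM in dsxF+/+ XY, against 0.394, 0 and 0 CPM in dsxF+/+ XX (edgeR adjusted p = 9.14e-05). AGAP003709-RC was at 16.02, 13.2 and 0.972 CPM in dsxF+/+ XY and at 0 in dsxF+/+ XX, with the third male far below the others, or 441 counts over the males and 0 over the females, at least 152.5-fold higher in dsxF+/+ XY (edgeR adjusted p = 0.00591; 0.0562 in limma-voom). The gene sum of 223, 764 and 157 CPM in dsxF+/+ XY overlapped the 97.2, 444 and 178 CPM in dsxF+/+ XX (0.67, edgeR adjusted p = 0.470), and its fold turned to -0.33 without the second dsxF+/+ XY library. AGAP008689, the axonemal dynein intermediate chain 1, differed in that its sum was called: 498.9, 711 and 494 CPM in dsxF+/+ XY, against 70.8, 113 and 81.0 CPM in dsxF+/+ XX (2.69, edgeR adjusted p = 3.15e-05). The difference lay in AGAP008689-RB (3.66, edgeR adjusted p = 5.87e-05), which made up 87.2% of the counts in dsxF+/+ XY and 43.9% in dsxF+/+ XX, while AGAP008689-RA was at 0.64 (edgeR adjusted p = 0.142).

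**Figure D4:**
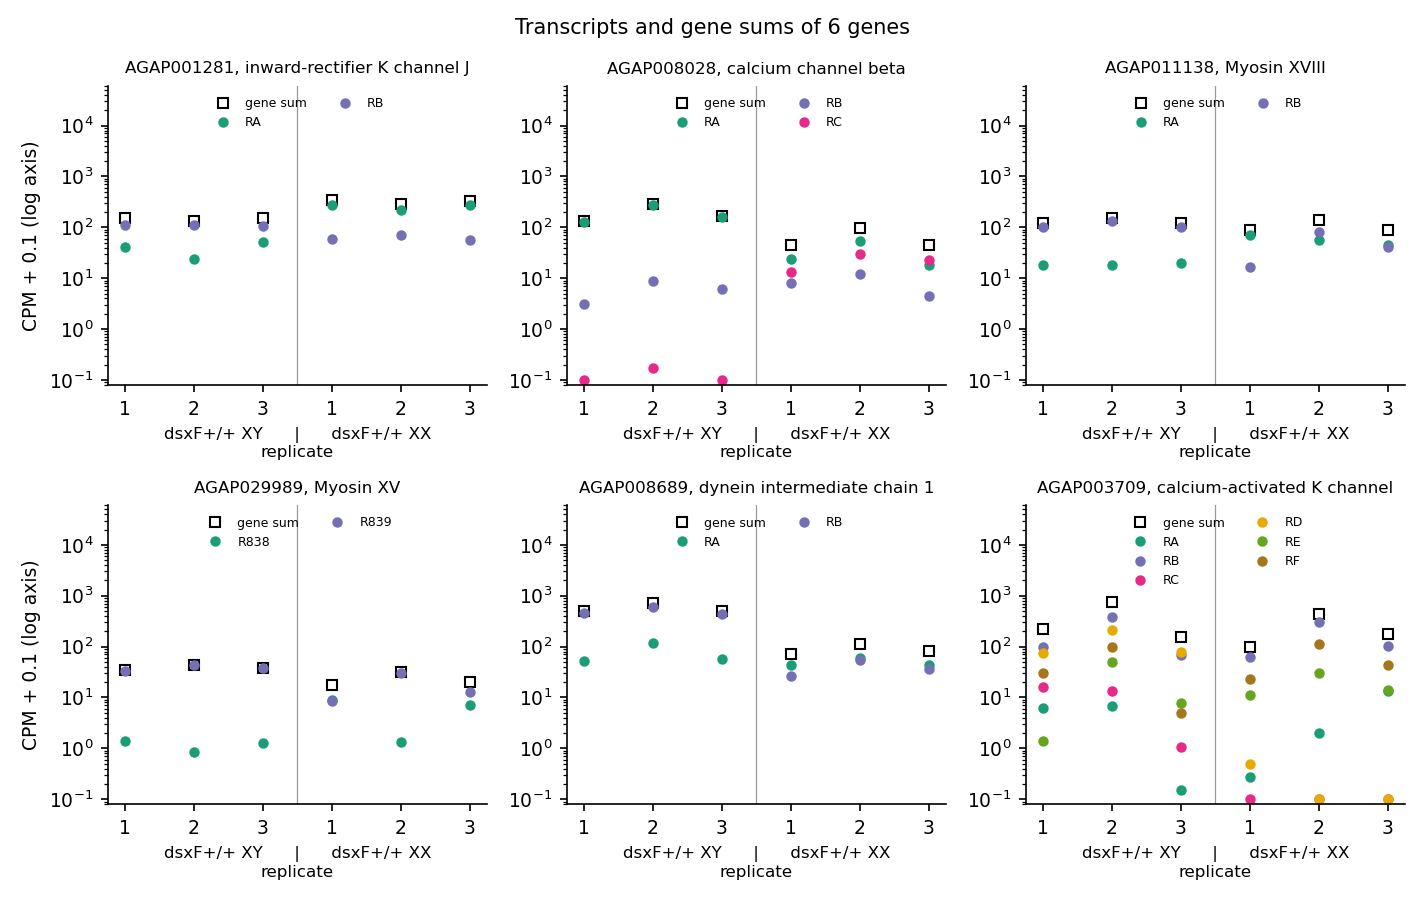
Levels per library (CPM + 0.1, log axis) of the transcripts (dots) and gene sums (open squares) of 6 genes, with the 3 dsxF+/+ XY replicates left of the 3 dsxF+/+ XX replicates in each panel. For AGAP001281 the order of -RA and -RB is the opposite in the sexes, AGAP008028-RC is at or near 0 in dsxF+/+ XY only, and AGAP003709-RC is at 0 in every dsxF+/+ XX library.

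For other named genes the transcript was called and the sum was not. AGAP001372, the microtubule-associated protein Jupiter, had AGAP001372.R552 higher in dsxF+/+ XY (log2 fold change 1.36, edgeR adjusted p = 0.0119) with a sum at 0.53 (edgeR adjusted p = 0.140). A chloride channel, AGAP005777, had AGAP005777-RA higher (1.06, edgeR adjusted p = 0.0108) with a sum at 0.49 (edgeR adjusted p = 0.0840). In 3 more genes neither the sum nor any transcript passed: AGAP000320, a dynein intermediate chain (sum 0.50, edgeR adjusted p = 0.0560), AGAP002888, an orphan G-protein-coupled receptor (1.37, edgeR adjusted p = 0.0898), and AGAP006028, the GABA-gated chloride channel subunit Rdl (1.30, edgeR adjusted p = 0.105). AGAP009276, the Piezo-type mechanosensitive channel, was called both as AGAP009276-RB (1.92, edgeR adjusted p = 0.00422) and as a sum (1.41, edgeR adjusted p = 0.0121), and the sum lost its call without the third dsxF+/+ XX library (edgeR adjusted p = 0.0568).

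The 4 named genes of the highest level in dsxF+/+ XY were all motor or ciliary genes. Of the 39 in this class, 35 gene sums were higher in dsxF+/+ XY and 0 lower, with a median log2 fold change of 1.27. Over all genes 12.7% were higher and 19.7% lower, with a median of 0.01. The study chose these genes as higher in dsxF+/+ XY on the same samples, so their direction was set by the choice. The highest level was that of AGAP010971, an alpha tubulin, the building block of microtubules, with 4386, 1763 and 2791 CPM in dsxF+/+ XY, against 903, 697 and 901 CPM in dsxF+/+ XX (1.84, standard error 0.35, edgeR adjusted p = 0.00234). The males varied over 2-fold among themselves, and the lowest of them was still above every female. AGAP000219, Tektin-3, a filament protein of the axonemal doublets, was at 2253, 1897 and 1858 CPM in dsxF+/+ XY, against 543, 488 and 458 CPM in dsxF+/+ XX (2.01, standard error 0.24, edgeR adjusted p = 1.39e-04). AGAP009594, a homolog of axonemal dynein assembly factor 1, which helps to assemble dynein arms in the cytoplasm, was at 1837, 2130 and 2071 CPM in dsxF+/+ XY, against 358, 374 and 340 CPM in dsxF+/+ XX (2.49, standard error 0.21, edgeR adjusted p = 1.89e-05). Both were far steadier between libraries than the tubulin.

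Within the dynein arms, AGAP011540, the axonemal dynein intermediate chain 2, had the largest fold of the class, with 549, 530 and 554 CPM in dsxF+/+ XY, against 24.9, 24.7 and 23.2 CPM in dsxF+/+ XX (log2 fold change 4.49, standard error 0.20, edgeR adjusted p = 7.44e-07). The 2 named dynein heavy chains, the motor subunits, rose by 2.84 (AGAP009568, edgeR adjusted p = 0.00133) and 3.11 (AGAP011441, edgeR adjusted p = 8.39e-04). AGAP009318, a Tctex1 domain-containing protein and thus related to dynein light chains, rose by 2.16 (edgeR adjusted p = 2.38e-05). Of the proteins that stabilise or line axonemal microtubules, both genes annotated as stabilizer of axonemal microtubules 1-like rose, by 2.71 (AGAP003120, 1041, 812 and 857 CPM in dsxF+/+ XY, against 128, 163 and 123.4 CPM in dsxF+/+ XX) and by 2.60 (AGAP012726). AGAP013430, piercer of microtubule wall 1, a lower-level gene, rose by 3.45, with 13.9, 15.3 and 25.6 CPM in dsxF+/+ XY, against 1.71, 1.98 and 1.29 CPM in dsxF+/+ XX. AGAP006887, an axonemal dynein light chain 4, rose less (1.27, edgeR adjusted p = 0.0153), with the second library of each sex the highest, and lost its call without the second dsxF+/+ XY, the first dsxF+/+ XX or the third dsxF+/+ XX library.

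Named kinesin genes, and genes of ciliary transport and of the ciliary base, were also higher in males. The kinesin genes, motors that walk along microtubules, included AGAP007592, higher by 2.22 (edgeR adjusted p = 4.58e-04), and AGAP000561, kinesin family member 5, higher by 1.07 (edgeR adjusted p = 0.00192). AGAP000187, the kinesin-associated protein, rose by 0.81 (edgeR adjusted p = 0.00752), and AGAP006324, nompB, known in Drosophila as an intraflagellar transport protein needed for sensory cilia, rose by 0.91, with 39.5, 44.8 and 39.7 CPM in dsxF+/+ XY, against 20.4, 19.2 and 26.5 CPM in dsxF+/+ XX (edgeR adjusted p = 0.00401). AGAP002548, Meckelin-like, whose relatives act in the transition zone, rose by 2.16, with 476, 444 and 529 CPM in dsxF+/+ XY, against 87.8, 127 and 109 CPM in dsxF+/+ XX (edgeR adjusted p = 5.31e-05). Of the other myosins, AGAP000776, Myosin VI, and AGAP004403, Myosin I, were at 1.09 and 1.33 (edgeR adjusted p = 0.0166 and 0.0405), and both lost the call without the second dsxF+/+ XY, the first dsxF+/+ XX or the third dsxF+/+ XX library.

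Of the 29 named channels, receptors and signalling genes, 21 sums were higher and 1 lower, with a median log2 fold change of 1.41. Over all genes 12.7% were higher and 19.7% lower. This list was likewise chosen as higher in dsxF+/+ XY on these samples, which set its direction. Among channels of the mechanosensory neurons, AGAP012241, nanchung, a TRP channel required for hearing in Drosophila, was at 214, 223 and 242 CPM in dsxF+/+ XY, against 63.8, 74.0 and 59.6 CPM in dsxF+/+ XX (1.78, standard error 0.19, edgeR adjusted p = 6.53e-05). The other TRP channel, AGAP006825 (Trpm), was not called (0.97, edgeR adjusted p = 0.0591) and passed with the sample-sheet runs as a block (0.99, edgeR adjusted p = 0.0299). Among chloride channels, AGAP009616, pH-sensitive chloride channel 2, was nearly off in control females. It was at 42.0, 35.3 and 52.2 CPM in dsxF+/+ XY, against 1.14, 0.349 and 0.575 CPM in dsxF+/+ XX (5.94, standard error 0.36, edgeR adjusted p = 4.23e-06). The paper places its transcript among those also raised in dsxF-/- XX females, so it was not limited to males. AGAP005599, the other pH-sensitive chloride channel, was of a higher level and far more uneven. It was at 379, 1286 and 432 CPM in dsxF+/+ XY, against 40.9, 189 and 68.4 CPM in dsxF+/+ XX (2.81, standard error 0.63, edgeR adjusted p = 0.00637). The sum lost its call without the third dsxF+/+ XX and second dsxF+/+ XY libraries together (1.82, edgeR adjusted p = 0.0713). Its transcripts AGAP005599.R499, AGAP005599.R500 and AGAP005599.R502 were called, and AGAP005599.R504 was not (3.69, edgeR adjusted p = 0.0535). Among potassium channels, AGAP001284, a second inwardly-rectifying channel of subfamily J, ran against AGAP001281. It was at 5.33, 3.62 and 4.24 CPM in dsxF+/+ XY, against 0, 0.0582 and 0.144 CPM in dsxF+/+ XX (5.97, standard error 0.79, edgeR adjusted p = 2.60e-04). The pooled ratio was 71.7 (exact 95% counting interval 24.2 to 351). AGAP005251, a voltage-gated potassium channel, rose by 2.35 (edgeR adjusted p = 0.0079).

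Among receptors, AGAP005034, a putative metabotropic glutamate receptor 5, had the largest fold, with 58.3, 68.5 and 56.6 CPM in dsxF+/+ XY, against 2.85, 3.38 and 5.18 CPM in dsxF+/+ XX (log2 fold change 4.01, standard error 0.27, edgeR adjusted p = 7.23e-06). AGAP002886, which the study identifies as the octopamine receptor AgOctβ2R, was at 233, 509 and 305 CPM in dsxF+/+ XY, against 69.8, 140 and 69.6 CPM in dsxF+/+ XX (1.91, standard error 0.36, edgeR adjusted p = 0.0022). Octopamine is an insect neuromodulator that reaches the Johnston's organ through efferent fibres. AGAP003658, a putative allatostatin receptor 1, rose by 1.82 (edgeR adjusted p = 0.00222), and AGAP010486, allatostatin receptor 3, by 1.32 (edgeR adjusted p = 0.0368), the second of them losing its call with 4 single libraries left out. The NMDA-type ionotropic receptors AGAP001478 (1.11, edgeR adjusted p = 0.00899) and AGAP005527 (1.18, edgeR adjusted p = 0.0168) both rose, the second losing its call without the second dsxF+/+ XY library, and AGAP000232, a regulator of G-protein signalling, rose by 1.52 (edgeR adjusted p = 0.002). Of the 14 neurotransmitter and peptide receptors on the list, itself chosen as higher in dsxF+/+ XY, 10 were higher and 0 lower (12.7% and 19.7% of all genes). Their summed level was 978, 2110 and 1091 CPM in dsxF+/+ XY, against 344, 788 and 444 CPM in dsxF+/+ XX. The second library was the highest in each sex, by a similar factor, and these 2 libraries have neighbouring sample-sheet numbers. With the sample-sheet runs as a block, the receptors named here kept their calls. AGAP002886 was then at 1.91 (edgeR adjusted p = 9.66e-04) and AGAP010486 at 1.29 (edgeR adjusted p = 0.0195). The cause of the shared rise was not tested.

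All 8 cuticular protein genes tested, of 10 that the study named as higher in dsxF+/+ XY on these samples, were higher there (12.7% of all genes). Their median log2 fold change was 2.70, and AGAP012487 stayed above this median even at its bound. AGAP006830 (RR-1 family 58) was at 229, 124 and 234 CPM in dsxF+/+ XY, against 1.54, 0.582 and 0.791 CPM in dsxF+/+ XX (7.63, standard error 0.52, edgeR adjusted p = 7.41e-06). AGAP006828 (RR-1 family 60) was at 13.5, 12.5 and 18.7 CPM in dsxF+/+ XY, against 0, 0.116 and 0.432 CPM in dsxF+/+ XX (6.41, edgeR adjusted p = 3.28e-05). Genes of this family bind chitin, and both of these were near 0 in control females. They were not limited to males, since the dsxF-/- XX libraries held 220, 149 and 93.1 CPM of AGAP006830 and 37.2, 21.5 and 27.4 CPM of AGAP006828. AGAP000986, an unclassified cuticular protein, was the one of the highest level and the smallest fold, with 394, 388 and 388 CPM in dsxF+/+ XY, against 231, 249 and 212 CPM in dsxF+/+ XX (0.76, edgeR adjusted p = 0.0181), and its call was lost without the third dsxF+/+ XY or the third dsxF+/+ XX library.

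**Figure D5:**
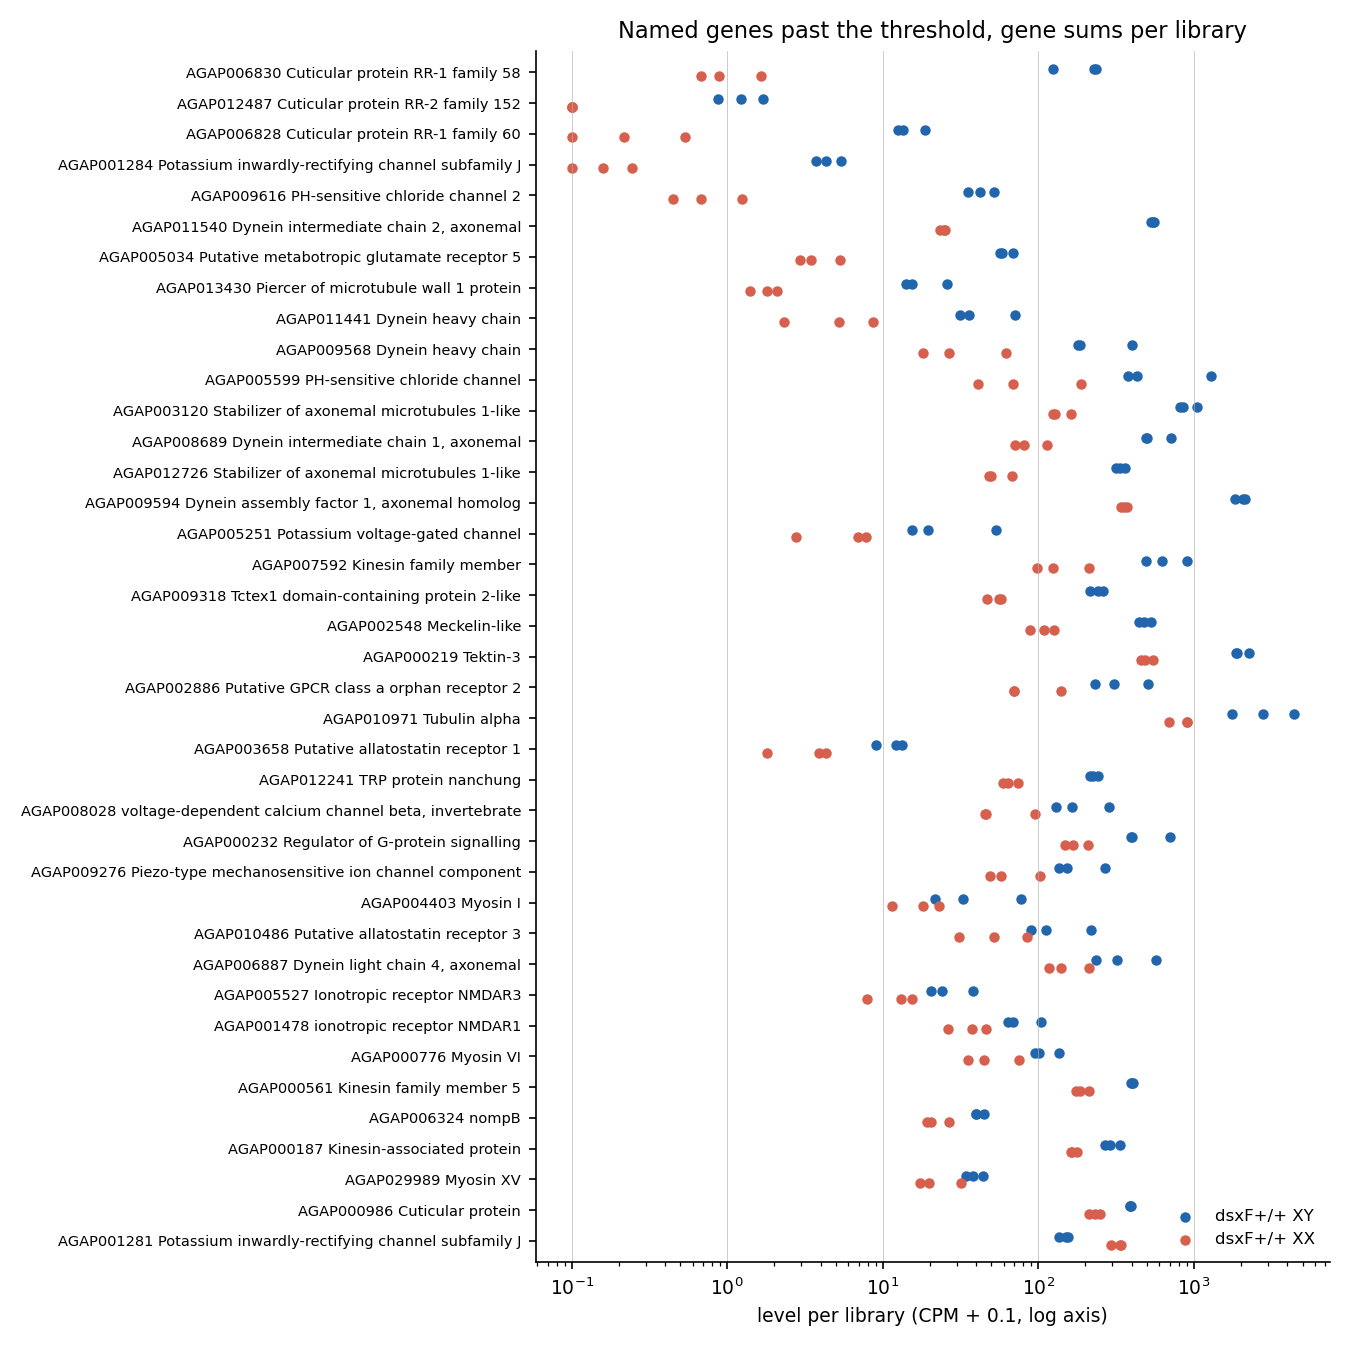
Levels per library (CPM + 0.1, log axis) of 39 named genes whose sums passed the threshold, ordered by log2 fold change, with the dsxF+/+ XY libraries (blue) drawn above the dsxF+/+ XX libraries (red) in each row. In 38 of these 39, drawn because they were called, the sexes do not overlap (Myosin I is the exception), beside 44.0% of all genes tested. AGAP001281, in the bottom row, is the only one lower in dsxF+/+ XY, on a list chosen as higher in dsxF+/+ XY.

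Not every gene on the study's motor lists was higher in males. The study's longer lists, headed dyneins (38 genes) and tubulins (110 genes), were built from expression in male pedicels and testes. The list headed tubulins also holds kinesins, dynein chains and other microtubule-related genes, and 18 genes are on both lists. Of 33 genes tested on the dynein list, 15 were higher and 4 lower in dsxF+/+ XY (median log2 fold change 0.74), and of 98 on the tubulin list 32 were higher and 10 lower (0.54). Without the named genes the counts were 7 higher and 4 lower of 24 on the dynein list (0.34), and 18 higher and 10 lower of 82 on the tubulin list (0.45), beside 12.7% higher and 19.7% lower over all genes. The unnamed members that follow were singled out after their values were seen. AGAP003271, on both lists, was the second largest rise in CPM of any gene, with 10864, 18633 and 11816 CPM in dsxF+/+ XY, against 825, 2072 and 918 CPM in dsxF+/+ XX (3.44, standard error 0.41, edgeR adjusted p = 1.29e-04). AGAP010435, also on both, was the fourth, with 6417, 17235 and 7162 CPM in dsxF+/+ XY, against 771, 1686 and 727 CPM in dsxF+/+ XX (3.28, edgeR adjusted p = 4.32e-04). In the opposite direction, AGAP011539, on the dynein list, was at 4.24, 5.73 and 4.72 CPM in dsxF+/+ XY, against 31.0, 32.6 and 29.4 CPM in dsxF+/+ XX (-2.66, standard error 0.18, edgeR adjusted p = 7.73e-06). AGAP010929, on the tubulin list, was lower at a high level, with 1204, 1251 and 1248 CPM in dsxF+/+ XY, against 2443, 1991 and 1986 CPM in dsxF+/+ XX (-0.79, edgeR adjusted p = 0.0101). Both lower genes were steady within each sex.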

How the data were processed

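The deposited table holds estimated counts per transcript, which the authors made with kallisto against the AgamP4.12 transcripts; its version was not given in the sources used here. Estimated counts of 9 libraries were rounded, and gene sums were made by adding transcripts whose identifiers differ only in the suffix; 0 columns were left over. Features were filtered with filterByExpr by group, normalized by TMM and tested with edgeR 4.0.16 (quasi-likelihood, R 4.3.3) in 1 fit of all 9 libraries, with the contrast dsxF+/+ XY over dsxF+/+ XX and Benjamini-Hochberg adjusted p under 0.05 over all features tested, transcripts and genes apart. The script was tested on simulated counts. Filters left 12379 of 16066 transcripts and 10479 of 13845 genes. Shares of counts were compared by an exact permutation test where the calls had not chosen the features. Counting intervals are exact binomial at 95% on pooled counts and leave out the spread between libraries.

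The features and lists were chosen with earlier results of these data known. Genes with a name were reported if among the 10 per direction with the largest fold (non-overlapping, mean of at least 5 CPM in the higher group) or CPM difference, the 10 of the highest level per sex, the 3 of the smallest p in a list, those with several transcripts, or those at 0 in one sex; of unnamed genes, the largest fold and CPM difference per direction. Names shown beyond this rule were chosen after their values were seen.

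Deviations from the group mean correlated at 0.174, 0.452 and -0.020 between libraries of the same label number. Between libraries of neighbouring sample-sheet numbers they correlated at 0.213, 0.452 and 0.233. The 0.452, between the second libraries, is in both sets, so these values do not decide which numbers pair the libraries. The labels do not call the sample-sheet numbers a batch. Alternatives were DESeq2 1.42.0, limma-voom (limma 3.58.1), other scaling factors, other filters, a stricter threshold, a test against 2-fold, only the 6 dsxF+/+ libraries, replicate blocks and leaving out libraries, of which leaving out the third dsxF+/+ XX and second dsxF+/+ XY libraries together, and the share of the 6 genes without the third dsxF+/+ XX library, were chosen after seeing the data.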

Additional observations from a re-analysis of the deposited data

Results flagged for a closer look

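A signal was found among genes left out of the tests. In the first dsxF+/+ XX library, 12 untested genes, each with at least 1000 counts there and under 10 in every other library of the study, held 0.851% of the counts. Their summed counts were 146230 in that library and 2 to 17 in each of the other 8. The highest, AGAP000612, which has no name here and was singled out after its value was seen, had 56558 counts in that library, against 0, 0 and 3 in the dsxF+/+ XY libraries and 2 and 1 in the other dsxF+/+ XX libraries. The origin of these counts was not tested.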

How the results depend on the processing

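Genes lower in dsxF+/+ XY (2067) stayed between 1666 and 2362 with 1 library left out, and genes higher (1336) between 786 and 2032; for transcripts the ranges were 1740 to 2391 lower and 806 to 2211 higher, and 968 transcripts were higher without the second and 905 without the third dsxF+/+ XY library. Without the third dsxF+/+ XX and second dsxF+/+ XY libraries together, 584 genes and 580 transcripts were higher and 1487 transcripts lower. Against a 2-fold change, 246 genes and 268 transcripts were higher and 1051 and 1111 lower; at an adjusted p under 0.01, 606 genes and 601 transcripts were higher and 1399 transcripts lower; with only the 6 dsxF+/+ libraries in the fit, 961 transcripts were higher. The tool, scaling and filter alternatives kept all 4 counts within 1.5 times. With the replicate block by label number, 1450 genes were higher and 2044 lower. With the sample-sheet runs as the replicate block, the counts were 1578 and 2143, and no named call changed beyond the 2 given beside their genes. The difference in the share of the 10 most abundant transcripts ranged between -3.67 and 3.54 percentage points with 1 library left out. Of 77 named results, 62 were called. The stricter threshold and the test against 2-fold were not applied to single named results. Under every other alternative that gave an adjusted p, 43 of the 62 kept their call, and 0 reversed. Among the 62, 10 calls were lost without the third dsxF+/+ XX library, 7 without the second dsxF+/+ XY library and 18 without both. The uncalled gene sum of AGAP003709 turned to -0.33 without the second dsxF+/+ XY library and -0.51 without both, and reached 1.47 without the second dsxF+/+ XX library. The cause of these shifts was not tested. DESeq2 gave no adjusted p for AGAP013149. Levels carry no transcript length, and 3 libraries a side limit the precision of every fold.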
